A study of Homo sapiens with 6 samples.

Results

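Expression of 10 genes was followed in U251 cells, a long-established line from a human glioma. These were the leukocyte adhesion molecules VCAM1, ICAM1, ICAM3 and ICAM5, the NF-kB subunits NFKB1, NFKB2 and RELB, and the NF-kB feedback genes NFKBIA, TNFAIP3 and BIRC3. They were taken by symbol, 10 of 16832 listed genes, and all 10 were found and passed the filter on low values. The genes were chosen by function and by their measured FPKM in the same 6 libraries, SLCDS against control, so the differences of its members between SLCDS and control are given here as a description, without p-values of their own. In 3 libraries U251 cells had been kept with SLCDS, a combination of small molecules that the labels do not spell out, for 18 days. In 3 control libraries the cells received PBS without SLCDS, and no culture time is given for them. All cells are one line labelled wild type, so the 3 libraries of a group are replicates of that line. Nothing in the labels says whether they came from separate cultures, so p-values measure the spread between these samples, which may be technical.

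VCAM1 and the ICAM genes encode membrane proteins with immunoglobulin domains that leukocytes grip through integrins. VCAM1 is bound by the integrin made of ITGA4 and ITGB1, and the ICAMs mainly by integrins that carry ITGB2. NF-kB is a family of dimeric transcription factors held in the cytoplasm by inhibitors such as the product of NFKBIA. Inflammatory cytokines free it through the IKK kinases, and it then activates adhesion genes, cytokine genes and, as feedback, several of its own inhibitors and subunits. In the brain VCAM1 and ICAM1 are best known from inflamed endothelium and reactive astrocytes, and ICAM5 from neurons of the telencephalon.

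The promoters of the pair that moved in opposite directions, VCAM1 and ICAM1, and of the main brake, NFKBIA, are shown because all 3 genes are textbook NF-kB targets. Each is the 250 bases before the transcript start in RefSeq on GRCh38.p14, written 5′ to 3′ along the gene's own strand. The windows are chr1:100719492-100719741 on the plus strand for VCAM1, chr19:10270870-10271119 on the plus strand for ICAM1 and chr14:35404750-35404999 on the minus strand for NFKBIA. Capitals mark matches to the outline of an NF-kB site, GGG and CC with 5 bases of any kind between them, or to GGNNNTTCC, on either strand.
VCAM1: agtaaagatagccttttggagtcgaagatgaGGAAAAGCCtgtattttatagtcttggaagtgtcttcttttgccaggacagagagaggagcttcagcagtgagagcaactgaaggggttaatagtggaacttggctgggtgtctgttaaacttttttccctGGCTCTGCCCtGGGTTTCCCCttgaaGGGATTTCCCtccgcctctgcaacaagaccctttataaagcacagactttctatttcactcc
ICAM1: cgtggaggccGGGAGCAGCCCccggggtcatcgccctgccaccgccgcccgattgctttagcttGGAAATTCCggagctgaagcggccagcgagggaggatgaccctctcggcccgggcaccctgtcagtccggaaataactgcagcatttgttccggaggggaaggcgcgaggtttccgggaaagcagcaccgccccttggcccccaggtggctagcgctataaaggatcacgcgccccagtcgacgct
NFKBIA: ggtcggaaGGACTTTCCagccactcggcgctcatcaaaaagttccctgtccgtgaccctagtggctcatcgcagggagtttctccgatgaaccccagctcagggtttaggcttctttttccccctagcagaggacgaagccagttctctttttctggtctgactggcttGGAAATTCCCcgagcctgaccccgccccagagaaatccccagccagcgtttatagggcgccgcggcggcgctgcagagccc
In VCAM1 a pair of matches to the outline, GGGTTTCCCC and GGGATTTCCC, lay at positions -77 to -68 and -62 to -53 before the start. ICAM1 held GGAAATTCC at -186 to -178, a match to GGNNNTTCC, and NFKBIA held GGAAATTCCC at -81 to -72.

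RefSeq windows were matched for 9 of the 10 genes, all but RELB. The outline occurred in all 9, but also in 54.4% of all 35116 promoter windows of the same length. A narrower form, GGG, 2 free bases, TT, 1 free base and CC, occurred in 6 of the 9 genes (VCAM1, NFKB1, NFKB2, TNFAIP3, BIRC3 and NFKBIA). Counted by window, since some genes have several starts, that was 7 of 14 windows of these genes, against 5.07% of all windows. GGNNNTTCC, a pattern added once the sequences had been seen, included ICAM1 as well, making 7 genes and 8 of their 14 windows, against 17.1% of all windows. All patterns were searched on both strands and their matches overlap. The 3 genes ICAM1, ICAM5 and ICAM3 share a stretch of chromosome 19, where their windows start at 10270870, 10289702 and, for 3 alternative starts of ICAM3, between 10334821 and 10339625. These matches describe letters only, and no binding was measured.

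The values are FPKM, fragment counts scaled to transcript length and library depth, deposited by the authors for each library, so levels can be set side by side between genes. The steps between the lowest FPKM values correspond to about 16600000 to 17200000 fragments in SLCDS libraries and 16300000 to 17000000 in control libraries. For a transcript of 2000 nucleotides, 1 FPKM then stands for 32.5 to 34.3 fragments. Of the glioma and astrocyte markers, GFAP was present at 127 to 141 FPKM in SLCDS and 312 to 354 FPKM in control. OLIG2 went the other way, with 3.05, 2.88 and 2.28 FPKM in SLCDS and 1.21, 1.39 and 1.86 FPKM in control. VIM, NES, SOX2, S100B and SLC1A3 were present in every library, and AQP4 was under 0.5 FPKM in all of them. Control replicate 3 stood apart. Across genes it correlated with the other controls at a Pearson r of 0.9765 and 0.9767, where control replicates 1 and 2 reached 0.9969 with each other. The results of the 10 genes are therefore given with and without it.

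VCAM1 and ICAM1 moved in opposite directions and ended at about the same level in SLCDS. VCAM1 had 4.40, 4.81 and 4.60 FPKM in SLCDS replicates 1 to 3, against 20.1, 17.4 and 13.2 FPKM in control replicates 1 to 3. Every SLCDS library lay far below every control library, and the controls were more scattered than the SLCDS libraries. The means were 4.60 ± 0.201 FPKM in SLCDS and 16.9 ± 3.45 FPKM in control libraries (SD, n = 3 each), a level 3.67 times as high in control. On the log2(FPKM + 1) scale, on which changes of low genes come out too small, VCAM1 fell by 1.66 (SE 0.14).

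ICAM1 went the other way, with 4.37, 4.23 and 4.75 FPKM in SLCDS and 1.05, 1.49 and 1.51 FPKM in control. The groups were again well apart, with no SLCDS library below 4.23 FPKM and no control above 1.51 FPKM. Its means were 4.45 ± 0.269 FPKM in SLCDS and 1.35 ± 0.258 FPKM in control libraries (SD, n = 3 each), 3.29 times as high in SLCDS. The log2 fold change was 1.22 (SE 0.10). If the authors' length is that of the longest GENCODE transcript, 3252 nucleotides, the ICAM1 values rest on about 228 to 265 fragments in each SLCDS library and 56 to 83 in each control. VCAM1, at 3083 nucleotides, rests likewise on about 228 to 245 fragments in SLCDS and 693 to 1011 in control. In bulk libraries, fewer cells with a transcript and less of it per cell cannot be told apart.

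**Figure D1:**
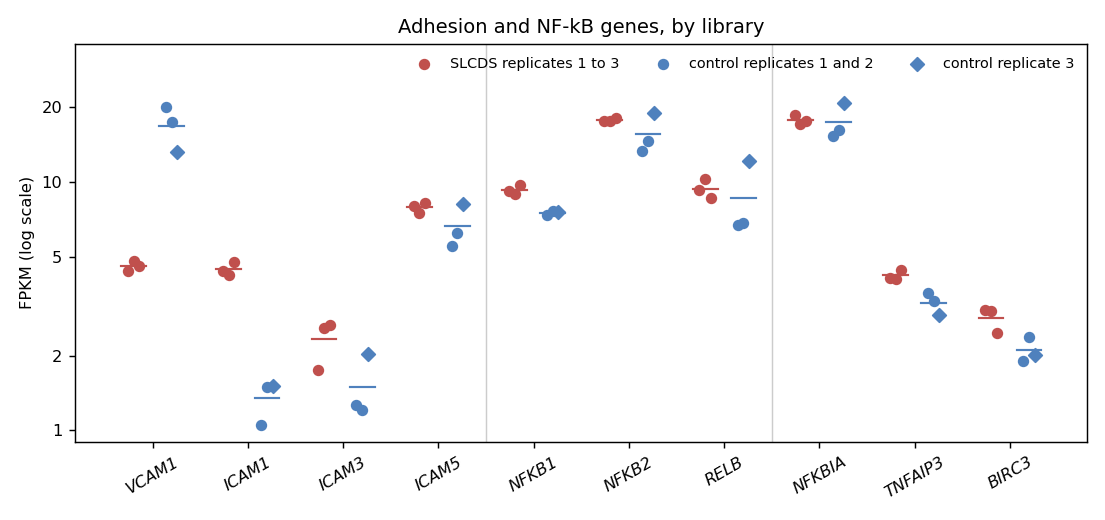
FPKM on a log axis for the 10 genes, with 1 point per library, SLCDS in red left of control in blue, control replicate 3 as a diamond, and short lines at the group means. VCAM1 and ICAM1 are the genes with wide gaps between groups, in opposite directions, and the control replicate 3 point lies above all SLCDS points for NFKB2, RELB and NFKBIA.

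The ratio of VCAM1 to ICAM1 within a library does not change when all its values are scaled by a common factor. It can change under corrections that treat genes differently, such as removal of GC trends. It was 1.01, 1.14 and 0.967 in SLCDS replicates 1 to 3, against 19.1, 11.6 and 8.77 in control replicates 1 to 3. The 2 transcripts were thus about equally abundant in every SLCDS library, and VCAM1 exceeded ICAM1 many times over in every control. Summed over the 4 adhesion genes, levels were 18.5, 19.1 and 20.2 FPKM in SLCDS and 27.9, 26.3 and 25.0 FPKM in control. VCAM1 made up 22.7% to 25.1% of that sum in SLCDS and 53% to 72% in control. ICAM1 made up 22.1% to 23.6% in SLCDS and 3.78% to 6.04% in control.

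**Figure D2:**
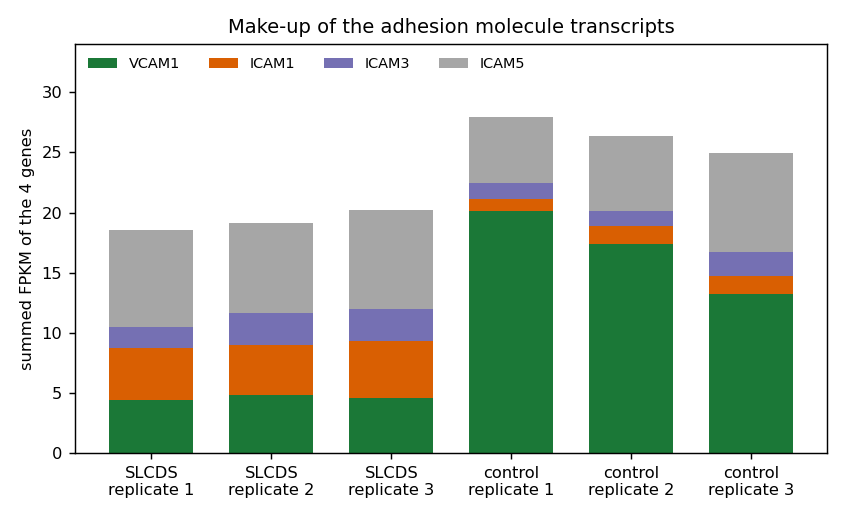
Stacked FPKM of VCAM1, ICAM1, ICAM3 and ICAM5 in each library, SLCDS libraries left of control libraries. VCAM1 fills 53% to 72% of each control bar and 22.7% to 25.1% of each SLCDS bar.

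The other ICAM genes differed less. ICAM5, known as telencephalin from forebrain neurons, had 8.01, 7.52 and 8.21 FPKM in SLCDS and 5.51, 6.25 and 8.20 FPKM in control. Control replicate 3 reached the level of the SLCDS libraries, so the groups overlapped (log2 fold change 0.23, SE 0.13). ICAM5 had the highest level of the 4 adhesion genes in every SLCDS library, whereas VCAM1 had the highest in every control. ICAM3, otherwise a molecule of resting leukocytes, had 1.75, 2.59 and 2.67 FPKM in SLCDS and 1.27, 1.21 and 2.03 FPKM in control libraries (log2 fold change 0.42, SE 0.16). The lowest SLCDS library was below control replicate 3, so these groups overlapped too. ICAM2 and ICAM4, the remaining family genes, were listed at 0 to 0.0444 FPKM and 0 to 0.0903 FPKM over all libraries.

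Among the NF-kB subunits, NFKB1, whose product is processed to the DNA-binding subunit of the classical dimer, had 9.20, 8.97 and 9.73 FPKM in SLCDS and 7.38, 7.67 and 7.55 FPKM in control. All SLCDS libraries were above all controls, by a small margin (log2 fold change 0.27, SE 0.07). NFKB2, the precursor gene of the alternative pathway, had 17.6, 17.7 and 18.1 FPKM in SLCDS and 13.3, 14.6 and 18.9 FPKM in control. Control replicate 3 was above every SLCDS library, while the other controls were below them all (log2 fold change 0.19, SE 0.12). RELB, the partner subunit of the NFKB2 product, showed the same layout, with 9.31, 10.3 and 8.66 FPKM in SLCDS and 6.75, 6.87 and 12.2 FPKM in control libraries (log2 fold change 0.16, SE 0.20). RELA, the main activating subunit, was not in the set and stood at 45.6 to 48.3 FPKM in SLCDS, with 45.8 to 51.8 FPKM in control.

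Of the feedback genes, NFKBIA had 18.6, 17.2 and 17.6 FPKM in SLCDS and 15.3, 16.2 and 20.8 FPKM in control. The groups overlapped through control replicate 3, and the means were 17.8 ± 0.729 FPKM in SLCDS and 17.5 ± 2.97 FPKM in control libraries (SD, n = 3 each; log2 fold change 0.04, SE 0.12). TNFAIP3, a ubiquitin-editing enzyme that switches off signalling from TNF receptors, had 4.12, 4.07 and 4.43 FPKM in SLCDS and 3.57, 3.31 and 2.93 FPKM in control. The groups did not overlap, and control replicate 3 was the lowest library (log2 fold change 0.29, SE 0.086). BIRC3, a ubiquitin ligase of TNF receptor complexes that is itself induced by NF-kB, had 3.06, 3.03 and 2.47 FPKM in SLCDS and 1.91, 2.37 and 2.01 FPKM in control. Its groups were separate as well, but only narrowly (log2 fold change 0.31, SE 0.10).

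In order of mean level in SLCDS, NFKBIA and NFKB2 (17.8 FPKM each) came first, followed by RELB (9.42), NFKB1 (9.30), ICAM5 (7.91), VCAM1 (4.60), ICAM1 (4.45), TNFAIP3 (4.21), BIRC3 (2.85) and ICAM3 (2.34). Ranges over libraries overlapped between NFKBIA and NFKB2, between RELB and NFKB1, among VCAM1, ICAM1 and TNFAIP3, and between BIRC3 and ICAM3. In control the order was NFKBIA (17.5 FPKM), VCAM1 (16.9), NFKB2 (15.6), RELB (8.60), NFKB1 (7.53), ICAM5 (6.65), TNFAIP3 (3.27), BIRC3 (2.10), ICAM3 (1.5) and ICAM1 (1.35). There the first 3 overlapped, as did RELB, NFKB1 and ICAM5, and each of BIRC3, ICAM3 and ICAM1 with its neighbour. VCAM1 was thus level with the highest of the 10 genes in control and ICAM1 was at the bottom, whereas in SLCDS they stood side by side.

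In a limma fit over all 11506 genes tested, with Benjamini-Hochberg adjustment and a threshold of 0.05, 2 of the 10 genes passed, ICAM1 higher and VCAM1 lower in SLCDS. Over all tested genes 6.09% passed, 4.28% higher and 1.82% lower. Ranges of FPKM were separate between the groups for 5 of the 10, namely VCAM1, ICAM1, NFKB1, TNFAIP3 and BIRC3, and for 29.1% of all tested genes. The median log2 fold change of the 10 genes was 0.25, against 0.00036 over all tested genes. Since this comparison was used to choose the genes, nothing is read from these counts.

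Without control replicate 3, all 10 genes passed, 9 higher and VCAM1 lower, but 27.7% of all tested genes then passed as well, 16.0% higher and 11.8% lower. The log2 fold change of VCAM1 was then -1.81, against -1.66 with all libraries, and that of ICAM1 1.27. The log2 fold change was 0.41 for RELB (SE 0.071), 0.56 for ICAM3, 0.37 for ICAM5, 0.33 for NFKB2 and 0.17 for NFKBIA, each higher than with all libraries. NFKB1 (0.27), TNFAIP3 (0.23) and BIRC3 (0.29) stayed close to or slightly below their values over all libraries. As the genes were chosen on these libraries, these calls too are a description.

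**Figure D3:**
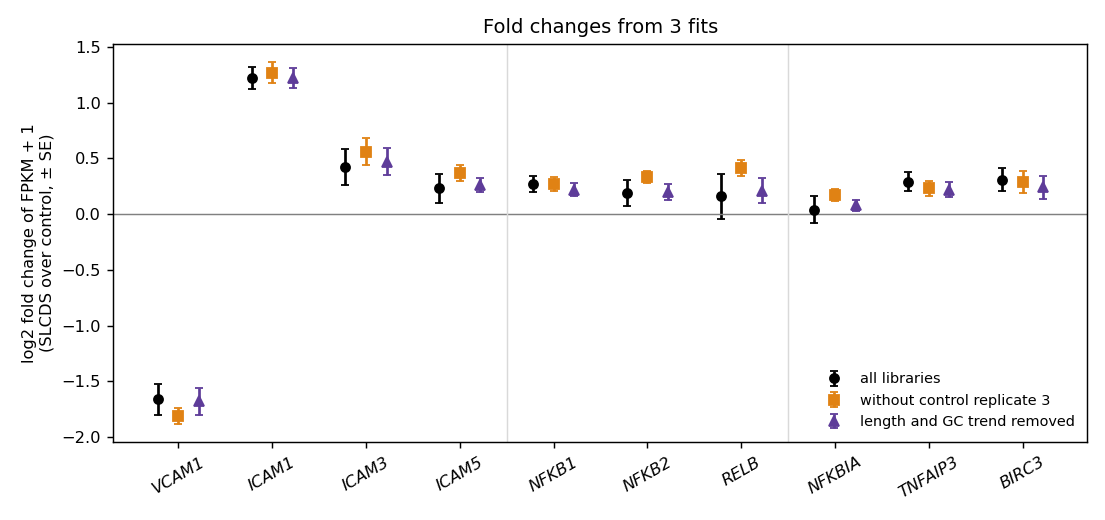
Log2 fold change of FPKM + 1, SLCDS over control, with its SE, for each gene over all libraries, without control replicate 3 and with each library's trend with transcript length and GC content removed. VCAM1 (-1.66, -1.81 and -1.68) and ICAM1 (1.22, 1.27 and 1.22) have the lowest and the highest value under each, and RELB ranges from 0.16 to 0.41.

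The position of control replicate 3 went with the GC content of the transcripts. It exceeded the mean of control replicates 1 and 2 by 0.75 on the log2(FPKM + 1) scale for RELB, whose longest transcript has 65.4% GC. The excess was 0.15 for ICAM1 (56.9% GC), 0.42 for ICAM5 (67.4% GC), 0.42 for NFKB2 (62.4% GC), 0.44 for ICAM3 (60.3% GC) and 0.38 for NFKBIA (53.1% GC). It was close to 0 for NFKB1 (0.0051 at 50.1% GC) and BIRC3 (-0.058 at 34.8% GC) and below 0 for TNFAIP3 (-0.18 at 49.5% GC) and VCAM1 (-0.47 at 41.4% GC). Over all tested genes the median difference was -0.19 for 4318 genes under 45% GC and 0.35 for 1788 genes of 60% GC or more. With each library's trend with length and GC content removed, an alternative added with the data in view, 6 of the 10 genes passed, beside 18.1% of all genes, 9.33% higher and 8.79% lower. These were VCAM1 lower and ICAM1, ICAM3, ICAM5, NFKB1 and TNFAIP3 higher, whereas NFKB2 (log2 fold change 0.20), RELB (0.21), BIRC3 (0.24) and NFKBIA (0.081) did not pass.

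**Figure D4:**
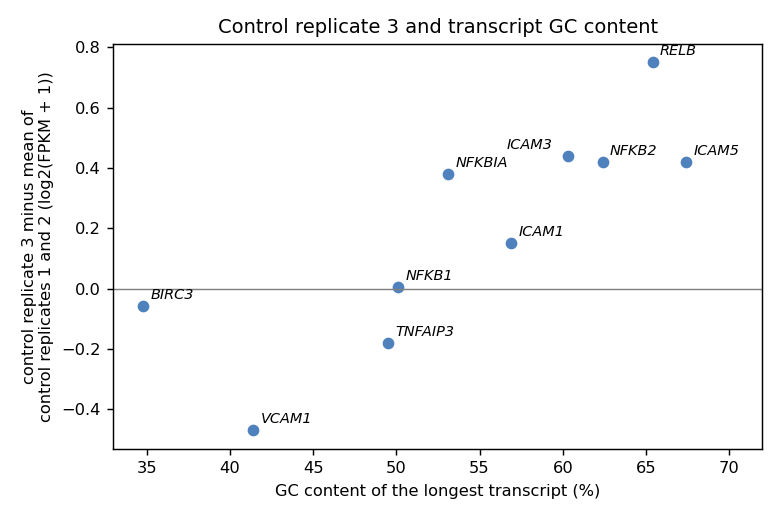
Difference between control replicate 3 and the mean of control replicates 1 and 2, in log2(FPKM + 1), against the GC content of the longest transcript in percent, with 1 point for each of the 10 genes. Those of 60% GC or more lie at 0.42 to 0.75, and VCAM1, at 41.4%, lies at -0.47.

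The partners of these molecules were read from lists of other pathway genes. These lists, like the members, were chosen with earlier results of these data known. The calls and adjusted p values of their genes are therefore a description. Of the integrin chains that bind VCAM1 or the ICAMs, 2 of 9 were expressed well enough to be tested. Both rose, where 6.09% of all tested genes passed. ITGB1 had 151, 150 and 156 FPKM in SLCDS and 110, 107 and 84.9 FPKM in control libraries (limma log2 fold change 0.60, SE 0.11; adjusted p = 0.0221). ITGA4, its partner in the VCAM1 receptor, had 1.18, 1.43 and 1.34 FPKM in SLCDS and 0.842, 0.743 and 0.497 FPKM in control libraries (limma, adjusted p = 0.0433). In both genes control replicate 3 was the lowest library and the groups did not overlap. All ITGA4 controls were under 1 FPKM, so ITGA4 passed the filter on low values only through SLCDS. Nothing is therefore read from its call. With any 1 SLCDS library left out neither passed (limma, adjusted p of 0.107 to 0.119 for ITGB1 and 0.116 to 0.194 for ITGA4), and ITGA4 also did not pass without control replicate 1 (0.0596) or 2 (0.102). ITGAL and ITGB2, the chains of the main leukocyte receptor for ICAMs, stood at 0 to 0.0333 FPKM and 0.0769 to 0.544 FPKM over all libraries.

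Of 16 other leukocyte adhesion molecules 8 were tested, 2 rose, none fell and 6 did not pass. Called genes made up 25% of those tested, beside 6.09% of all tested genes. JAM2, a junctional adhesion molecule, averaged 28.2 ± 0.455 FPKM in SLCDS and 17.5 ± 1.15 FPKM in control libraries (SD, n = 3 each; log2 fold change 0.66; limma, adjusted p = 0.00262). MCAM, an immunoglobulin adhesion molecule of vessel and melanoma cells, averaged 14.4 ± 0.901 FPKM in SLCDS and 10 ± 0.491 FPKM in control libraries (limma, adjusted p = 0.0132). Without control replicate 3, 4 of these molecules were higher and 2 lower, beside 27.7% of all tested genes. MCAM did not pass without control replicate 1 or any 1 SLCDS library (limma, adjusted p of 0.0519 to 0.0892).

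Among 13 other NF-kB subunits, inhibitors and IKK kinases 1 rose, 1 fell and 11 did not pass, with a median log2 fold change of 0.064. Called genes made up 15.4% of the 13, beside 6.09% of all tested genes. BCL3, a nuclear member of the inhibitor family that can act as a coactivator, had 15.5, 15.1 and 14.8 FPKM in SLCDS and 8.74, 8.91 and 12.1 FPKM in control libraries (limma, adjusted p = 0.0367). MAP3K14, the kinase that starts the alternative pathway, had 19.6, 22.5 and 22.3 FPKM in SLCDS and 28.5, 27.9 and 27.8 FPKM in control libraries (limma, adjusted p = 0.0308). BCL3 and MAP3K14 showed no overlap of groups. Neither passed when control replicate 1 or 2 or any 1 SLCDS library was left out (limma, adjusted p of 0.111 to 0.173 for BCL3 and 0.0945 to 0.154 for MAP3K14). Without control replicate 3, 3 of the 13 genes were higher and 1 lower, beside 27.7% of all tested genes.

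Of 22 tested receptors and adaptors upstream of NF-kB, TNFRSF12A rose, none fell and 21 did not pass. That share, 4.55%, was close to the 6.09% of all tested genes. TNFRSF12A, the receptor for the cytokine TWEAK, was named with its values known, with 36.9, 31.0 and 35.8 FPKM in SLCDS and 15.8, 15.9 and 25.8 FPKM in control libraries (limma, adjusted p = 0.042). The TNF receptor TNFRSF1A stood at 52.6 ± 2.42 FPKM in SLCDS, with 54.5 ± 7.67 FPKM in control libraries (SD, n = 3 each; limma, adjusted p = 0.882). The kinase IRAK1, which relays interleukin-1 and Toll-like receptor signals, stood at 52.7 ± 1.30 FPKM in SLCDS, with 47.3 ± 3.84 FPKM in control libraries (limma, adjusted p = 0.364), and passed as higher without control replicate 3 (log2 fold change 0.21; limma, adjusted p = 0.00766). Of 16 tested other brakes and ubiquitin regulators, counted together here as brakes, 1 rose and none fell. This share, 6.25%, was also close to that of all tested genes. The gene that rose was NLRC5, likewise named with its values known. It stood at 14.7 ± 0.582 FPKM in SLCDS, with 10.7 ± 0.642 FPKM in control libraries (limma, adjusted p = 0.0199). TNFRSF12A did not pass when control replicate 1 or 2 or any 1 SLCDS library was left out (limma, adjusted p of 0.115 to 0.189), nor NLRC5 without control replicate 1 or any 1 SLCDS library (0.0745 to 0.122). Without control replicate 3, 6 receptors and adaptors and 3 brakes were higher and none were lower, where 27.7% of all tested genes passed. The adaptor TAX1BP1 stood at 66.9 ± 0.535 FPKM in SLCDS, with 66.8 ± 3.66 FPKM in control, and RBCK1, of the linear ubiquitin ligase, at 50.1 ± 1.81 FPKM in SLCDS, with 52.0 ± 6.44 FPKM in control libraries (limma, adjusted p = 0.985 and 0.85).

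Other NF-kB target genes moved in both directions, as VCAM1 and ICAM1 did. Of 36 listed genes 21 were tested, 6 rose, 3 fell and 12 did not pass, with a median log2 fold change of 0.22. Called genes made up 42.9% of those tested, beside 6.09% of all tested genes (4.28% higher and 1.82% lower). PLAU, the urokinase gene, had 41.7, 38.7 and 37.4 FPKM in SLCDS and 14.8, 13.0 and 17.4 FPKM in control libraries (limma log2 fold change 1.33, SE 0.11; adjusted p = 0.000935). The neutrophil chemokine gene CXCL8 had 1.74, 1.84 and 1.56 FPKM in SLCDS and 0.449, 0.225 and 0.826 FPKM in control libraries (log2 fold change 0.87; limma, adjusted p = 0.0147). IL6, the interleukin-6 gene, had 8.73, 9.79 and 8.59 FPKM in SLCDS and 17.3, 16.9 and 19.6 FPKM in control libraries (limma log2 fold change -0.92, SE 0.087; adjusted p = 0.00155). IL1A, itself an inducer of NF-kB, had 4.38, 4.28 and 4.24 FPKM in SLCDS and 7.50, 9.36 and 8.72 FPKM in control libraries (log2 fold change -0.84; limma, adjusted p = 0.00256). The groups were separate for all 4. Every CXCL8 control was under 1 FPKM, so CXCL8 passed the filter on low values only through SLCDS. Nothing is therefore read from its call. PLAU, IL6 and IL1A passed with every library left out in turn, and CXCL8 did not pass without control replicate 1 or any 1 SLCDS library (limma, adjusted p of 0.056 to 0.0825). TNF and IL1B, the other classical inducers, lay at 0 to 0.0733 FPKM and 0.151 to 0.450 FPKM over all libraries, under the filter.

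The remaining called targets were outside the naming rule. The monocyte chemokine gene CCL2 (log2 fold change 0.83), the urokinase receptor gene PLAUR (0.63), the peptide transporter gene TAP1 (0.59) and SOD2 (0.53), the mitochondrial superoxide dismutase, rose, and CD83 fell (-0.33). Their limma adjusted p values were 0.00188, 0.0036, 0.0498, 0.00567 and 0.0382. CCL2 and PLAUR passed with every library left out in turn, but TAP1 and CD83, with 1 library left out, passed only without control replicate 3, and SOD2 did not pass without SLCDS replicate 1 (0.0526) or 2 (0.0501). Without control replicate 3, 14 targets were higher and 3 lower, beside 27.7% of all tested genes. With the length and GC trend removed 8 were higher and 3 lower, beside 18.1% of all genes. There SOD2 no longer passed (limma, adjusted p = 0.112, with 3.78e-05 to 0.112 over the other settings).

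**Figure D5:**
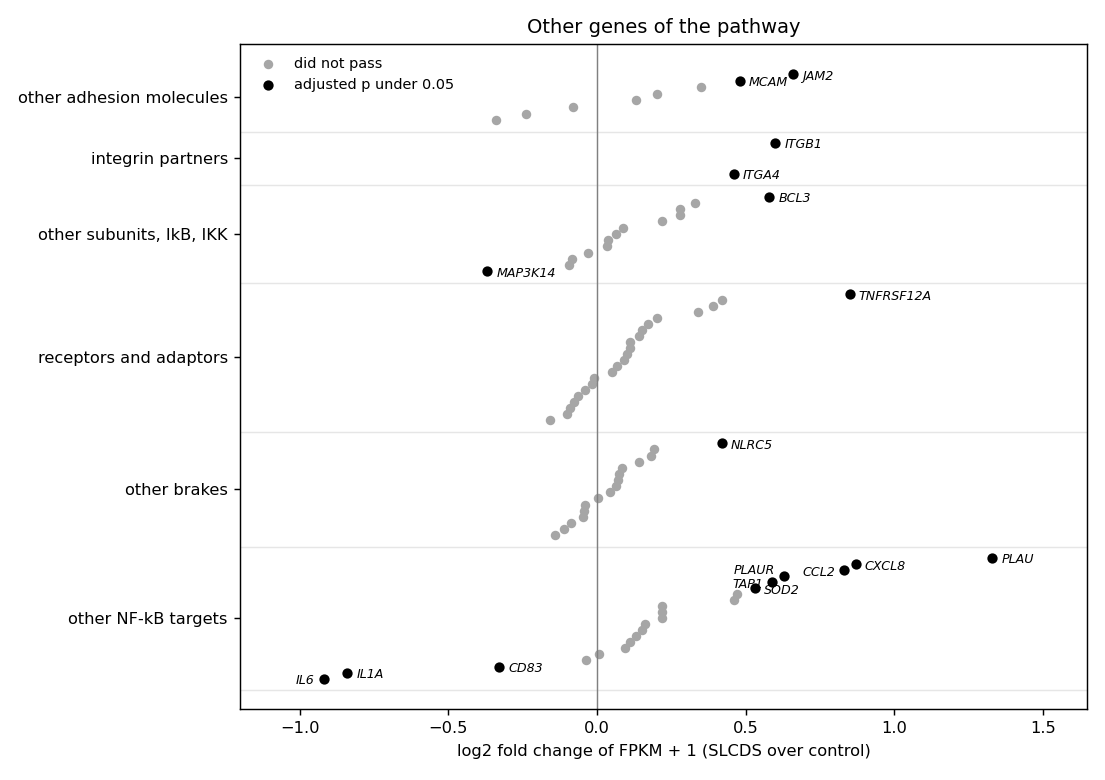
Log2 fold change of FPKM + 1, SLCDS over control, for the tested genes of 6 lists, with 1 point per gene. Points are black where the limma adjusted p was under 0.05 and grey otherwise. The NF-kB target list spreads to both sides, with PLAU at 1.33 and IL6 at -0.92, while most receptors, adaptors and brakes lie near 0.

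Defining markers of endothelial cells and leukocytes, which commonly carry these adhesion molecules, were mostly low. Of 10 endothelial markers 6 were under 0.5 FPKM in every library, among them PECAM1, VWF and CLDN5, and the summed level of the 10 was 8.72 to 9.54 FPKM in SLCDS and 4.57 to 7.08 FPKM in control. CDH5, an endothelial cadherin, rose, with 4.57, 4.54 and 5.32 FPKM in SLCDS and 1.70, 1.40 and 2.62 FPKM in control libraries (limma, adjusted p = 0.0106; without control replicate 3, 8.89e-06), beside ICAM1. Of 8 listed leukocyte and microglia markers, 7 were under 0.5 FPKM in every library, PTPRC and AIF1 among them, and the sums were 3.84 to 5.11 FPKM in SLCDS and 3.01 to 3.71 FPKM in control. The remaining marker, CD68, had 4.01, 3.44 and 4.71 FPKM in SLCDS and 2.84, 2.85 and 2.66 FPKM in control. Its groups did not overlap, but it did not pass (limma, adjusted p = 0.0737). Without control replicate 3 CD68 passed as higher (limma, adjusted p = 0.0176), where 27.7% of all tested genes passed. Of 11 listed neuron markers, 4 were under 0.5 FPKM throughout (DCX, RBFOX3, CAMK2A and TBR1), beside ICAM5, with sums of 81.6 to 84.2 FPKM in SLCDS and 88.9 to 93.3 FPKM in control. Of the 6 neuron markers tested 5 did not pass and 1 rose, against the direction of the sum. That share, 16.7%, stood beside 6.09% of all tested genes. The marker that rose was SLC17A7, the vesicular glutamate transporter gene. It had 1.75, 1.90 and 2.29 FPKM in SLCDS, against 0.562, 0.396 and 0.520 FPKM in control (limma, adjusted p = 0.00155). It passed without control replicate 3 as well. In that fit 3 neuron markers were higher, SLC17A7, SYP and NEFL, beside 27.7% of all tested genes called in either direction. The 2 lower were TUBB3 (log2 fold change -0.30) and MAP2 (-0.50). Every SLC17A7 control and every SYP control (0.456, 0.686 and 0.999 FPKM) was under 1 FPKM. Both genes thus passed the filter on low values only through SLCDS. The fibroblast and pericyte list, carried by COL1A2, summed to 372 to 380 FPKM in SLCDS and 367 to 399 FPKM in control, and COL3A1, DCN and LUM were under 0.5 FPKM in every library. Of its 4 tested genes 2 rose beside ICAM1, a share of 50%, where 6.09% of all tested genes passed. PDGFRB, a growth factor receptor gene of pericytes, had 1.66, 1.84 and 1.81 FPKM in SLCDS, against 0.439, 0.3 and 0.339 FPKM in control (limma, adjusted p = 0.000696). ACTA2, the smooth muscle actin gene, had 6.71, 7.82 and 7.96 FPKM in SLCDS, against 2.48, 2.11 and 3.03 FPKM in control (limma, adjusted p = 0.00138). Both also passed without control replicate 3. As with SLC17A7, every PDGFRB control was under 1 FPKM, so PDGFRB passed the filter only through SLCDS. Nothing is therefore read from the calls of SLC17A7, SYP and PDGFRB, or from the counts that include them. The part of such markers in the differences of the adhesion genes was not tested.

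Among the 8392 other tested genes with a mean of at least 5 FPKM, those closest to VCAM1 over the 6 libraries were ranked by the root mean square difference between centred log2(FPKM + 1) profiles. ANKRD1, a nuclear ankyrin repeat protein gene, was closest, at 0.0924, with 3.22, 3.34 and 3.19 FPKM in SLCDS and 14.1, 10.9 and 10.2 FPKM in control. The secreted protein gene SCUBE3 lay at 0.159, with 2.66, 3.39 and 3.29 FPKM in SLCDS and 11.9, 10.4 and 7.11 FPKM in control. The neuropeptide Y receptor gene NPY1R lay at 0.227, with 3.84, 3.75 and 3.72 FPKM in SLCDS and 11.2, 11.2 and 10.9 FPKM in control. ANKRD1 and SCUBE3, like VCAM1, were lowest among controls in replicate 3, and the NPY1R controls were nearly equal.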

How the data were processed

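RNA was extracted with TRIzol and libraries were made with a VAHTS kit, the Universal V6 RNA-seq kit, per the labels' protocols. The authors deposited 1 file of linear FPKM values per library, and which aligner, counter and annotation they used is not given in the sources used here. GRCm38 and mm10, both mouse builds, appear in the submitters' processing notes, although the line and the gene symbols are human, so the genome used is unclear and printed coordinates are RefSeq's own on GRCh38.p14. The members and gene lists were chosen with earlier results of these data known.

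FPKM values were analysed as log2(FPKM + 1) for the 11506 genes that reached 1 FPKM in 3 or more libraries, with limma 3.58.1 in R 4.3.3, a mean-dependent variance prior, Benjamini-Hochberg adjustment and 2-sided tests. Sample titles gave the groups and replicate numbers. Deviations of same-numbered libraries from their group means correlated at r = -0.326, 0.36 and 0.0652, in no common direction. With 3 libraries per group these values cannot settle whether libraries were paired, and no pairing was used in the main fit. Replicates differed by more than counting noise (median chi-square 0.93 or more, where counting gives 0.45), so none were merged. Depth came from the lowest steps of genes with a single GENCODE release 29 transcript, 62 to 85 genes per library within 5%, and intervals of fragments were not computed. Alternatives were other pseudocounts, filters, scalings, variance priors, array weights, a replicate block, each library left out and, added later, removal of length and GC trends with splines of 4 degrees of freedom. Named were all members, from each list up to 4 called genes of largest change (with fewer than 2 called, the 2 most abundant genes instead), and the 4 genes most like VCAM1. One gene picked by this rule is not reported here. The fit was tested on simulated data. Python 3.11.15 with pandas 2.3.3 and matplotlib 3.10.9 was used for tables and figures.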

Additional observations from a re-analysis of the deposited data

How the results depend on the processing

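VCAM1 passed lower in all 19 other settings, with log2 fold changes of -1.83 to -1.53, and ICAM1 passed higher in all 18 in which it was tested, with 1.12 to 1.66. The other members passed in 1 to 3 of their settings, chiefly without control replicate 3, with array weights, which give that library less weight, and with length and GC trends removed. Of the pathway list genes called with all libraries, JAM2, IL6, IL1A, CCL2, PLAU and PLAUR passed in all 19, and ITGA4 (9 of 18), CD83 (10 of 18) and TAP1 (7 of 19) in the fewest. With array weights 3277 genes passed over all, 9 members, 6 other adhesion molecules, 5 other subunits and inhibitors, 6 receptors and adaptors, 3 other brakes and 17 other targets. With the trend removed the counts were 2079 genes, 6 members, 4 adhesion molecules and 4 receptors and adaptors. With the replicate block 455 genes passed, 1 adhesion molecule and 0 integrin chains, subunits or brakes, and it changed no call of a member; not every sample correlated best with its own number. With a mean FPKM of at least 5, 324 genes passed, 1 member of the 6 tested, 1 integrin chain, 1 subunit or inhibitor and 0 receptors. Scaling to a common sum left 0 integrin chains, 1 subunit or inhibitor and 0 brakes, quantile normalization 0 integrin chains, a pseudocount of 0.1 left 1 integrin chain, and no filter left 1 subunit or inhibitor. The cause was not tested.

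Leaving out 1 library at a time gave 276 to 3191 genes in all, 2 to 10 members, 1 to 6 adhesion molecules, 0 to 2 integrin chains, 0 to 4 subunits and inhibitors, 0 to 6 receptors and adaptors, 0 to 3 brakes and 5 to 17 targets, each highest without control replicate 3. Integrin chains were at 0 without any 1 SLCDS library and at 1 without control replicate 1 or 2. Some uncalled genes changed sign. NFKBIA had a log2 fold change of -0.045 without control replicate 1 and -0.0028 without control replicate 2, within a range of -0.045 to 0.17 over libraries left out. TNFRSF1A had 0.067 with array weights and 0.069 without control replicate 3 (lowest -0.11), and RBCK1 had 0.04 and 0.047 (lowest -0.12). TAX1BP1 had -0.012 with median of ratios scaling, -0.032 with array weights, -0.046 with the trend removed, -0.0014 without SLCDS replicate 3 and -0.039 without control replicate 3 (highest with 1 library left out 0.038, and 0.05 with quantile normalization). The narrower promoter pattern gave 6 promoters of 9 and GGNNNTTCC 7.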
